A study of Mus musculus with 2 samples.

Results

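*Col15a1*-gated cells were connective tissue cells of mouse limb that carried transcripts of *Col15a1*, which encodes a chain of the basement-membrane-associated collagen XV, and little *Pi16*. They were chosen by their measured unique molecular identifier (UMI) counts, where 1 UMI stands for 1 captured transcript. A cell had at least 500 detected genes, at most 10% mitochondrial UMIs, no *Ptprc* UMI and UMIs of at least 3 of the 6 stromal genes *Pdgfra*, *Clec3b*, *Dcn*, *Lum*, *Dpt* and *Col3a1*. Within these stromal cells it had at least 2 *Col15a1* UMIs, at most 2 *Pi16* UMIs and under 5 UMIs of *Thbs4* and *Cilp* together. The gate held 59 of 5859 deposited cells, 35 of 1872 in the intact library and 24 of 3987 in the callus library. The levels of the gate's own genes are therefore a description of the choice and not a finding.

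Both libraries came from mice with the genotype Clec3b.creERT2; Ai14.R26.tdTomato. The tamoxifen-dependent recombinase was knocked into the *Clec3b* gene, so the promoter of *Clec3b* decided which cells could acquire permanent tdTomato, and all cells of both libraries were sorted for that reporter. The authors found no meaningful tdTomato expression in the haematopoietic and endothelial cells and described those cells as artifacts of the sorting. In 3 littermates, whose age the labels do not give, 1 femur was fractured and stabilized 2 weeks after tamoxifen, and both limbs were collected 3 weeks after surgery. The callus library pooled the fracture calluses of the 3 mice, and the intact library their uninjured diaphyses and muscle, each dissociated in collagenase.

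With 1 pooled library per condition there was no replicate, so no test between conditions was possible and every callus value beside an intact one compares 2 libraries. The intact library held 12112002 UMIs and the callus library 36714322. 1 cell barcode occurred in both libraries, and it was not in the gate. The mice were described as male, yet *Xist* was detected in 33 of 35 gated intact cells and in 24 of 24 gated callus cells. The Y-linked genes *Ddx3y*, *Eif2s3y*, *Kdm5d* and *Uty* had 0 UMIs in these cells, and all 725 gene models of the Y chromosome together had 40 and 12 UMIs.

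Fibroblasts of many mouse tissues fall into a perivascular, adventitial type that carries *Pi16* and *Dpp4*, and a parenchymal type that carries *Col15a1* and lies between the working cells of the tissue. A basement membrane is a thin sheet of collagen IV and laminin networks, bridged by nidogens and the proteoglycan perlecan, that surrounds muscle fibres, vessels, nerves and fat cells. Collagen XV sits at the outer face of this sheet and links it to the fibrillar collagen of the interstitium.

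Not all gated cells carried a fibroblast programme. In the callus library 10 of the 24 cells carried *Bglap*, which encodes osteocalcin of bone-forming osteoblasts, with a lowest value of 253, a median of 2394 and a highest value of 4361 UMIs per cell. These 10 cells were deep, with a median of 33414 UMIs, and also carried the osteoblast transcripts *Ibsp* (70 to 334 UMIs per cell) and *Ifitm5* (20 to 43 UMIs per cell). *Clec3b* was detected in 1 of them, *Dpt* in 2 and *Col3a1* in 5, while *Cxcl14*, *Hmcn2* and *Ccl11* were at 0 in all 10. They held 73.7% of the UMIs of the callus gate and 28.5% of its *Col15a1* UMIs. A further callus cell carried 11 UMIs of *Pax7*, the transcription factor of muscle satellite cells, with 10 of *Chodl*, 8 of *Cdh15* and no *Smoc2*. In the intact library 1 of 35 cells carried *Bglap*, at 3393 UMIs.

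The label of parenchymal fibroblast was therefore kept for 47 of the 59 cells, those without a *Bglap* or *Pax7* UMI. No marker beyond the gate was required of these cells, and some carried few marker UMIs. The text calls the 34 intact and 13 callus cells without a *Bglap* or *Pax7* UMI *Col15a1*-gated fibroblasts, a split that was chosen after these values were seen, and gives the main values for all 59 cells too. *Col15a1*-gated fibroblasts held 257771 UMIs in the intact library (median 7675 per cell) and 106888 in the callus library (median 8234 per cell). The 6 stromal genes of the gate were each detected in at least 32 of the 34 intact and in all 13 callus fibroblasts, with *Dcn*, which encodes the collagen-binding proteoglycan decorin, at 35 to 241 and 37 to 283 UMIs per cell.

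**Figure D1:**
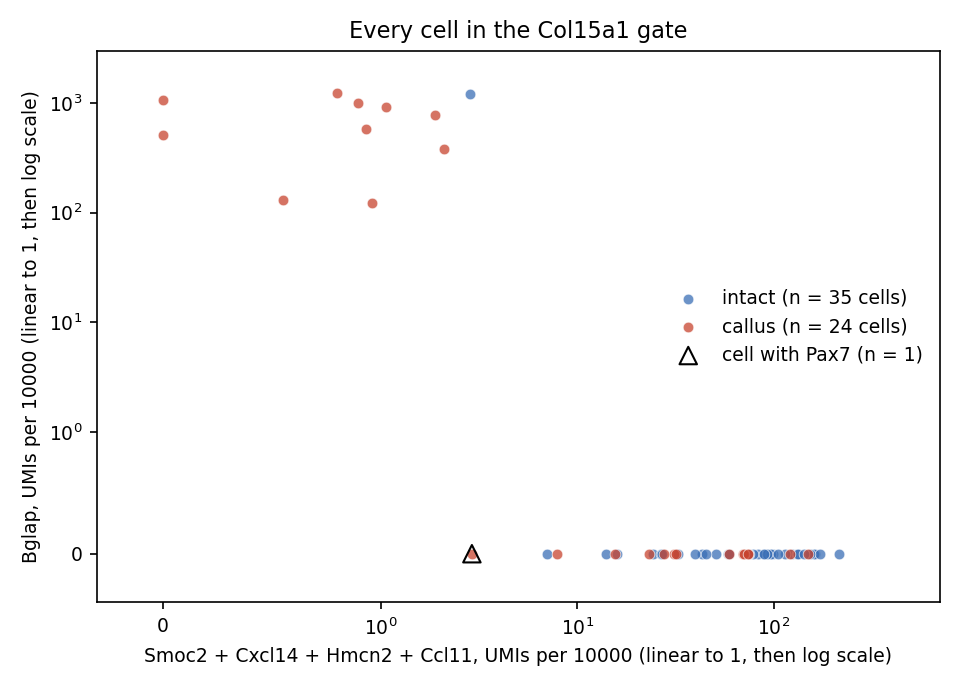
*Bglap* (y axis) against the sum of the markers *Smoc2*, *Cxcl14*, *Hmcn2* and *Ccl11* (x axis), both in UMIs per 10000 UMIs of the cell, linear to 1 and then on a log scale, for each of the 35 intact (blue) and 24 callus (red) gated cells (points), with the cell with *Pax7* ringed by a triangle. The 10 callus cells and 1 intact cell with *Bglap* lie at the upper left with few marker UMIs, and the 47 fibroblasts lie along the bottom at 0 *Bglap*.

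All 59 cells made up 12.2% of the 288 intact stromal cells (95% exact Clopper-Pearson interval 8.61 to 16.5) and 9.64% of the 249 callus stromal cells (6.27 to 14). The fibroblasts alone made up 11.8% (8.32 to 16.1) and 5.22% (2.81 to 8.76). These intervals, and the Poisson intervals below, cover counting error only. All cells had been sorted and dissociated from pooled tissue, and the part of those steps in the shares was not tested. For comparison, *Pi16* fibroblasts (at least 3 *Pi16* UMIs, at most 1 *Col15a1* UMI and under 5 of *Thbs4* and *Cilp*) numbered 204 and 108, and *Thbs4*/*Cilp* fibroblasts (at least 5 UMIs of these 2 genes) 24 and 61. The median depths of these groups were similar, at 7271 and 7124 UMIs per cell for *Pi16* fibroblasts and 7917 and 8974 for *Thbs4*/*Cilp* fibroblasts.

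The 5 marker genes of the cell type lie on separate chromosomes of the mm10 (GRCm38) build (positions from the GENCODE M21 annotation). *Col15a1* is at chr4:47208161-47313167, *Smoc2* at chr17:14279506-14404790, *Cxcl14* at chr13:56288643-56296551, *Hmcn2* at chr2:31314415-31460738 and *Ccl11* at chr11:82057823-82062955. Levels below are summed UMIs per 1000000 UMIs of the group (CPM), and they compare 1 gene between groups, not genes with each other.

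*Col15a1*, which the gate used, had a lowest value of 2, a median of 8 and a highest value of 31 UMIs per intact fibroblast, and 2, 8 and 18 per callus fibroblast. Its summed level was 1195 CPM (1065 to 1336) in the intact and 1067 CPM (880 to 1281) in the callus library, so the intervals overlapped.

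*Smoc2*, which encodes a secreted calcium-binding protein of the basement membrane and was not part of the gate, ranged from 1 to 63 UMIs per intact fibroblast (median 18) and from 1 to 41 per callus fibroblast (median 15). It summed to 2863 CPM (2660 to 3077) and 2264 CPM (1988 to 2568), against 104 and 65.5 CPM in *Pi16* fibroblasts. Every *Col15a1*-gated fibroblast thus carried *Smoc2*. After 2000 UMIs were drawn from each cell that had as many, to set the cells at 1 depth, 97% of 33 intact and 76.9% of 13 callus fibroblasts still carried it, against 15.3% of 189 and 8.16% of 98 *Pi16* fibroblasts.

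*Cxcl14*, a chemokine of epithelia and stroma, had the highest ratio to *Pi16* fibroblasts of the markers outside the gate and was among the most uneven between cells. It ranged from 0 to 139 UMIs per intact fibroblast (median 6, detected in 29 of 34) and from 0 to 64 per callus fibroblast (median 4, in 9 of 13). Its summed level was 3045 CPM (2836 to 3266) in the intact and 1506 CPM (1283 to 1758) in the callus library. Of the *Pi16* fibroblasts, 2 of 204 intact and 1 of 108 callus cells carried it.

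*Hmcn2*, which encodes hemicentin 2, a large extracellular matrix protein, was detected in 32 of 34 intact fibroblasts (median 5.5 UMIs) and 10 of 13 callus fibroblasts (median 3 UMIs), at 741 CPM (640 to 854) and 421 CPM (307 to 563). *Ccl11*, which encodes the eosinophil attractant eotaxin, was detected in 32 of 34 and 12 of 13, at 2072 CPM (1900 to 2255) and 1516 CPM (1291 to 1768). *Ccl11* separated the groups least, since 157 of 204 intact and 76 of 108 callus *Pi16* fibroblasts carried it too, at 499 and 417 CPM.

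**Figure D2:**
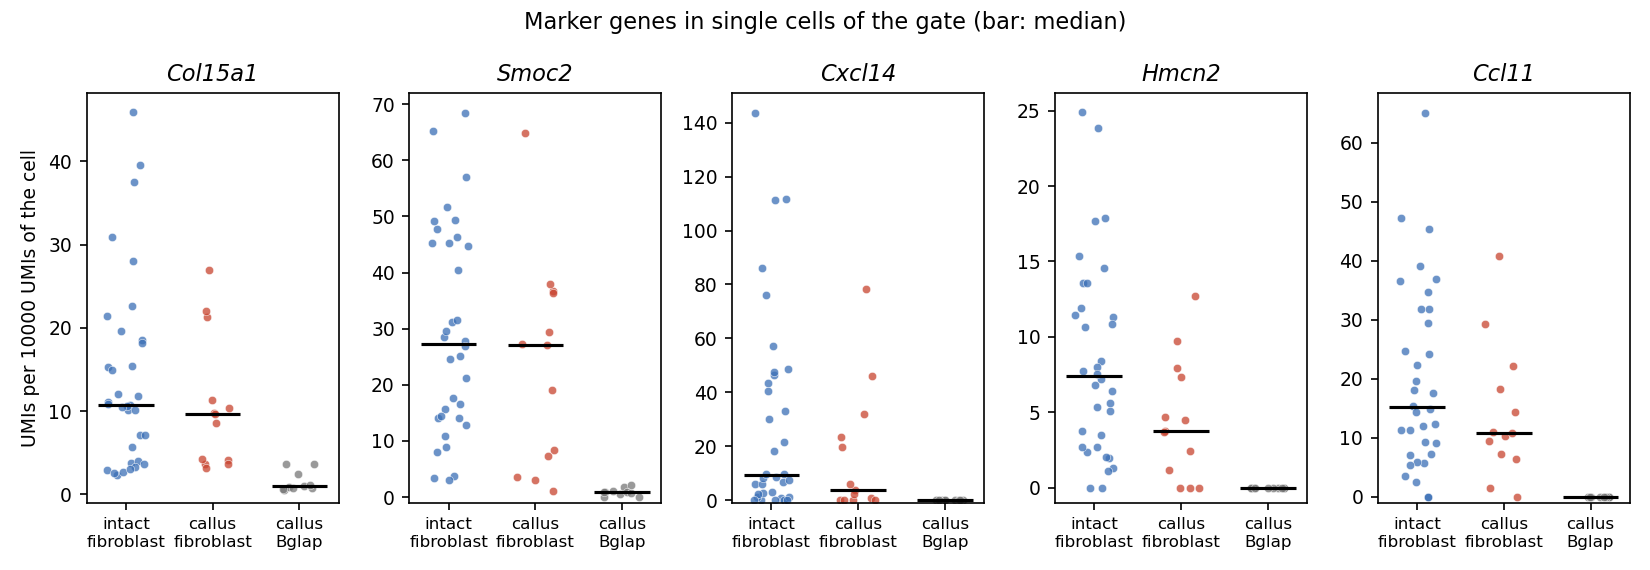
UMIs of the 5 markers per 10000 UMIs of the cell (y axes) in 34 intact fibroblasts, 13 callus fibroblasts and the 10 callus cells with *Bglap* (1 point per cell, bars at the medians). *Smoc2* is above 0 in all 47 fibroblasts, and *Cxcl14*, *Hmcn2* and *Ccl11* are at 0 in all 10 cells with *Bglap*.

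All 4 markers outside the gate were found together in 27 of 34 intact and 6 of 13 callus fibroblasts, and in 1 of 204 and 0 of 108 *Pi16* fibroblasts. The markers were chosen with earlier results of these data known. The 10 callus cells with *Bglap*, left out of the 13, were at 0 for *Cxcl14*, *Hmcn2* and *Ccl11*. These counts therefore describe the chosen cells and are not independent support for the choice. In blood-lineage cells, which should lack *Col15a1*, 2 of 653 intact and 12 of 2324 callus cells carried a UMI of it, at median depths of 4903 and 7662 UMIs.

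The genes of collagen IV, the network-forming collagen of basement membranes, were at higher levels in *Col15a1*-gated than in *Pi16* fibroblasts in both libraries. *Col4a1* had a lowest value of 1, a median of 18.5 and a highest value of 43 UMIs per intact fibroblast, and 1, 14 and 49 per callus fibroblast. *Pi16* fibroblasts ranged from 0 to 15 UMIs with a median of 1 in each library, so the ranges overlapped and the medians were far apart. Summed levels were 2425 CPM (2238 to 2622) and 2002 CPM (1743 to 2289) in *Col15a1*-gated fibroblasts, against 263 and 249 CPM in *Pi16* fibroblasts.

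*Col4a2*, which encodes the partner chain of the same collagen IV molecule, ranged from 0 to 33 UMIs (median 7.5) in intact and from 1 to 22 (median 4) in callus fibroblasts. It reached 1230 CPM (1098 to 1373) and 739 CPM (585 to 921), against 156 and 116 CPM in *Pi16* fibroblasts. Both chains were detected in 31 of 34 intact and 13 of 13 callus fibroblasts, in 76 of 204 and 35 of 108 *Pi16* fibroblasts, and in none of the 10 callus cells with *Bglap*.

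The 2 genes lie head to head on mouse chromosome 8, *Col4a1* at chr8:11198423-11312826 on the minus strand and *Col4a2* at chr8:11312805-11449287 on the plus strand. Their annotated starts are 21 bases apart, within a short overlap of the 2 genes, so that 1 short window holds both starts. The RefSeq window of *Col4a2* (GRCm38.p6, chr8:11312555-11312854, plus strand) is shown because both genes were high in the same cells; its capitals mark the 22 bases from the annotated *Col4a2* start to the *Col4a1* start.
Col4a2 window: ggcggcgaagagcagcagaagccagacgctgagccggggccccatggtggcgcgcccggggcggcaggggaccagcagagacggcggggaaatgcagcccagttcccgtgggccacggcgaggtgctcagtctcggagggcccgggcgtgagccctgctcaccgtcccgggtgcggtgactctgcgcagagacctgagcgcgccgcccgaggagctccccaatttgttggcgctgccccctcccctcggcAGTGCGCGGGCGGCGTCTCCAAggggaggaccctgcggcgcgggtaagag

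On either strand the window held the letters CCAAT 1 time, which 37.4% of 32851 RefSeq promoter windows of this length held, GGGCGG 3 times, held by 35.7%, and TATAAA 0 times, held by 13.6%. These matches describe the letters only. The window is that of *Col4a2*, and only its letters after the capitals lie upstream of *Col4a1*.

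Across all genes with at least 20 UMIs over both groups, log2 ratios of *Col15a1*-gated to *Pi16* fibroblasts were computed with 10 CPM added to each level. In the intact library 351 of 7872 genes (4.46%) were at least 2-fold higher and 637 (8.09%) at least 2-fold lower, and in the callus library 396 of 5986 (6.62%) higher and 637 (10.6%) lower. In both libraries the same way, 120 of 5914 genes (2.03%) were higher and 227 (3.84%) lower. With all 59 cells these were 76 of 6560 (1.16%) and 360 (5.49%). *Col15a1* and *Pi16* defined both groups, so these ratios describe the gates and nothing is read from the counts. Medians over all genes were -0.03 in the intact and 0.03 in the callus library.

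Of 35 basement membrane genes outside the gate, a list that includes the markers *Smoc2* and *Hmcn2*, 20 were counted in the intact library and 17 in the callus library. There 12 were at least 2-fold higher and 1 lower (median log2 ratio 1.34) in the intact library, and 7 higher and none lower (0.77) in the callus library. *Nid2*, which encodes a nidogen that joins laminin to collagen IV, was at 264 and 187 CPM against 17.7 and 20.2 CPM in *Pi16* fibroblasts (log2 ratios 3.30 and 2.71). *Col18a1*, the gene of collagen XVIII, the closest relative of collagen XV, was at 163 and 112 CPM against 17.1 and 20.2 CPM (2.68 and 2.02). *Hspg2*, the gene of perlecan, was at 954 and 608 CPM against 282 and 301 CPM (1.72 and 0.99). The laminin chains *Lama2* (1.31 and 0.77) and *Lamb1* (1.14 and 0.60) passed 2-fold in the intact library only, a difference between libraries that was not tested.

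Not every basement membrane gene was higher. *Nid1*, the other nidogen, was at 1598 and 1778 CPM with log2 ratios of -0.28 and -0.17, and *Lamc1*, the shared laminin gamma chain, had ratios of 0.49 and 0.59. *Lama4*, a laminin alpha chain of vessels, had ratios of 0.27 and -0.60. Of the receptors for basement membranes, 0 of 11 counted genes were higher and 3 lower in the intact library, and 0 of 10 passed 2-fold either way in the callus library.

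**Figure D3:**
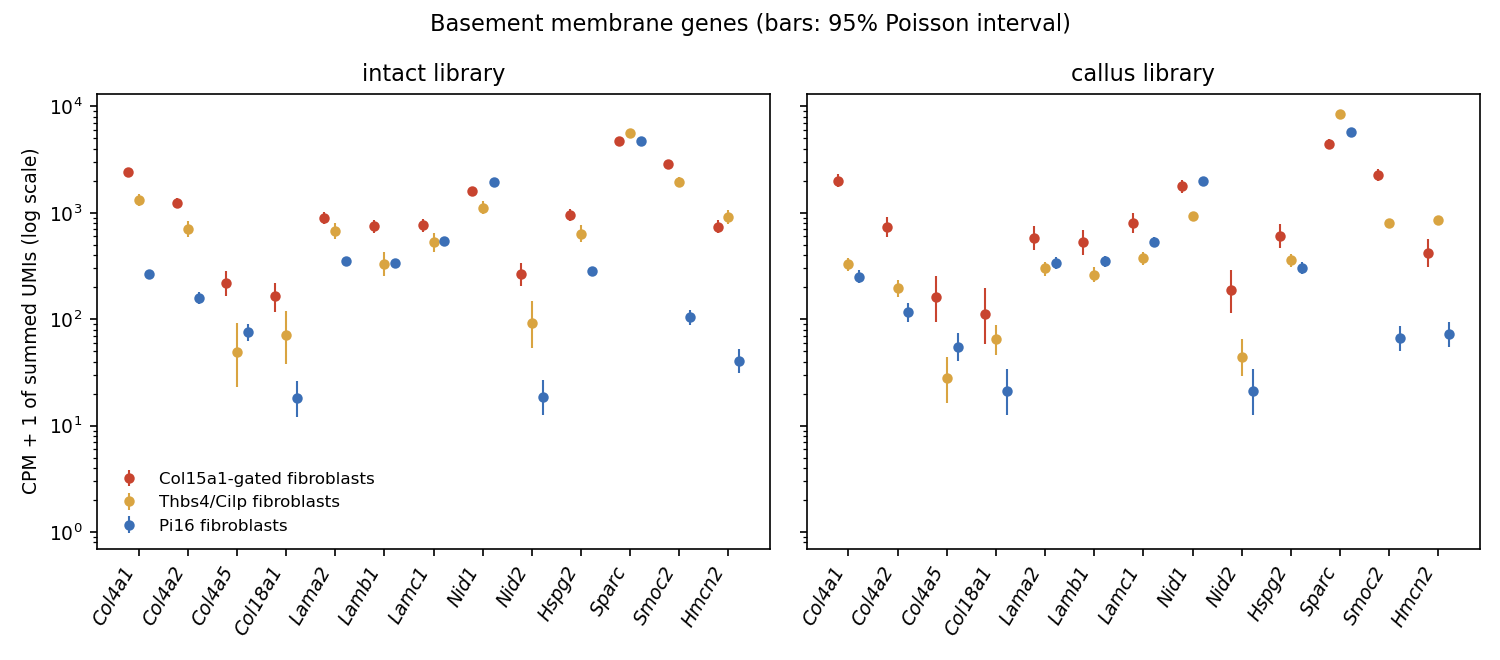
Summed level of 13 basement membrane genes (CPM with 1 added, log scale) in *Col15a1*-gated (red), *Thbs4*/*Cilp* (yellow) and *Pi16* fibroblasts (blue) of the intact (left) and the callus library (right), with bars for 95% Poisson intervals. *Col4a1*, *Col4a2*, *Col18a1* and *Nid2* are highest in the *Col15a1*-gated fibroblasts of both libraries, while *Nid1* lies near its level in *Pi16* fibroblasts.

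Of the genes of collagen VI, a beaded filament that lies next to basement membranes, those higher in both libraries were *Col6a2* (1536 and 1366 CPM against 537 and 534 CPM, log2 ratios 1.50 and 1.34), *Col6a3* (1.72 and 1.41) and *Col6a6* (2.01 and 1.06), while *Col6a1* (1.08 and 0.86) passed 2-fold in the intact library only. *Col14a1*, which encodes a fibril-associated collagen, was lower in both libraries (-2.97 and -2.55), and *Col1a1*, *Col12a1* and *Col16a1* were lower in the callus library. Over the list, 5 of 13 genes were higher and 1 lower (median 0.25) in the intact library and 3 higher and 4 lower (0.03) in the callus library. The proteoglycan genes *Bgn*, *Podn* and *Ecm2* were higher in both libraries and *Omd* and *Aspn* lower. Among matricellular genes *Sparcl1*, *Spon1*, *Vtn* and *Abi3bp* were higher and *Postn* and *Fn1*, which encode periostin and fibronectin, lower in both. *Postn* was detected in 1 of 34 and 3 of 13 fibroblasts, at 46.6 and 122 CPM against 767 and 1401 CPM in *Pi16* fibroblasts.

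*Apoe*, the gene of apolipoprotein E, was at 881 and 1834 CPM against 14.3 and 118 CPM (log2 ratios 5.19 and 3.84), yet it was detected in only 20 of 34 and 6 of 13 fibroblasts, with medians of 1 and 0 and highest values of 82 and 72 UMIs. *Apod*, another lipid carrier, was at 512 and 664 CPM against 90 and 142 CPM, and *Lpl*, the lipoprotein lipase gene, at 826 and 907 CPM against 276 and 276 CPM. *Hsd11b1*, which encodes the enzyme that regenerates active glucocorticoid, was at 194 and 65.5 CPM against 2.05 and 8.82 CPM. *Pparg*, the master transcription factor of fat cells, had 3.88 and 0 CPM. Over the adipogenic and lipid list 6 of 15 genes were higher and 1 lower (median 0.19) in the intact library, and 3 of 14 higher and 1 lower (0.26) in the callus library.

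Secreted signals were mixed. Of the chemokine and cytokine list, *Cxcl14* and *Ccl11* were at least 2-fold higher in both libraries, while *Cxcl2*, *Cxcl13* and the alarmin *Il33* were lower in both. The whole list stood at 5 higher and 5 lower of 20 (median 0.38), and at 6 higher and 4 lower of 17 (0.36). *Bmp4* and *Bmp5*, ligands of bone morphogenetic protein receptors, were higher, *Bmp4* at 175 and 187 CPM against 58.7 and 21.4 CPM and *Bmp5* at 101 and 168 CPM against 2.73 and 6.3 CPM, whereas *Bmp6* and *Bmp7* were lower. *Gdf10*, a relative of these ligands, had log2 ratios of 2.25 and 2.04, but only 2 of 34 intact and 4 of 13 callus fibroblasts carried it. Of its UMIs 55.6% and 50% were in 1 cell each. *Igf1*, insulin-like growth factor 1, was at 745 and 758 CPM against 178 and 296 CPM, with *Igfbp3* and *Igfbp7* higher and *Igfbp5* lower. *Igfbp3* was detected in only 11 of 34 intact and 6 of 13 callus fibroblasts, with 55.1% of its callus UMIs in 1 cell. Over the bone morphogenetic protein and transforming growth factor list, 6 of 26 were higher and 6 lower (-0.21) and then 6 of 23 higher and 4 lower (0.01). Of the WNT list, 2 of 18 were higher and 5 lower (-0.53, or -0.46 with genes at 0 set at their limit), and then 3 of 15 higher and 3 lower (0.22).

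The other genes named by rank were of varied kinds. *Sparcl1*, which encodes a matricellular relative of osteonectin, ranged from 0 to 17 UMIs per intact (median 4) and from 0 to 9 per callus fibroblast (median 2), at 683 and 458 CPM against 26.6 and 40.3 CPM in *Pi16* fibroblasts. *Mgp*, an inhibitor of mineral deposition, was at 462 and 992 CPM against 58.7 and 55.4 CPM. *Enpp2*, which encodes autotaxin, the enzyme that makes lysophosphatidic acid, was at 636 and 617 CPM against 113 and 108 CPM. *F3*, tissue factor of the clotting cascade, was at 365 and 262 CPM against 42.3 and 36.5 CPM. *Igfbp7*, the gene of another binding protein of growth factors, was detected in 33 of 34 and 13 of 13 fibroblasts, at 1482 and 992 CPM against 94.1 and 175 CPM. The matrix adhesion gene *Svep1* (303 and 262 CPM against 20.5 and 54.2 CPM), the angiopoietin-like gene *Angptl1* (1047 and 795 against 173 and 102 CPM) and the lipid transporter gene *Abca8a* (1187 and 1198 against 282 and 280 CPM) completed the highest 15. A list of 12 parenchymal genes taken as background, which includes *Col4a1*, *Col4a2*, *Sparcl1* and *Lpl*, had 12 of 12 counted genes higher in the intact (median 3.03) and 10 of 10 in the callus library (2.50). *Col4a1*, *Col4a2* and *Sparcl1* are also among the highest 15. The gene lists were chosen with earlier results of these data known, so such counts describe the groups and are not independent support. *Mme* on the parenchymal list, which encodes the peptidase neprilysin, was at 314 and 206 CPM against 15 and 12.6 CPM.

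The genes of the *Pi16* type other than *Pi16* were mostly lower. Of 17 counted in each library, 15 were at least 2-fold lower in the intact (median -2.63) and 12 in the callus library (-1.90), with none higher. *Smpd3*, which encodes a neutral sphingomyelinase, was at 46.6 and 37.4 CPM against 1664 and 495 CPM. *Cmah*, the hydroxylase that makes N-glycolylneuraminic acid, had 0 UMIs in both libraries, at least 13.9-fold and at least 7.32-fold lower than in *Pi16* fibroblasts when 3 UMIs per group are set as the limit of a count of 0. *Akr1c18*, *Lurap1l* and *Krtdap* were also at 0 in both. *Sbsn*, *Limch1* and *Car8* had at most 11.6 CPM in the intact library and 0 in the callus library. Of the complement list, 0 of 8 counted genes were higher and 4 lower in the intact library (median -1.17, or -1.15 with a gene at 0 set at its limit). In the callus library 0 of 9 were higher and 1 lower (-0.69). Over all genes 4.46% and 6.62% were higher and 8.09% and 10.6% lower, so nothing is read from the lack of higher complement genes.

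**Figure D4:**
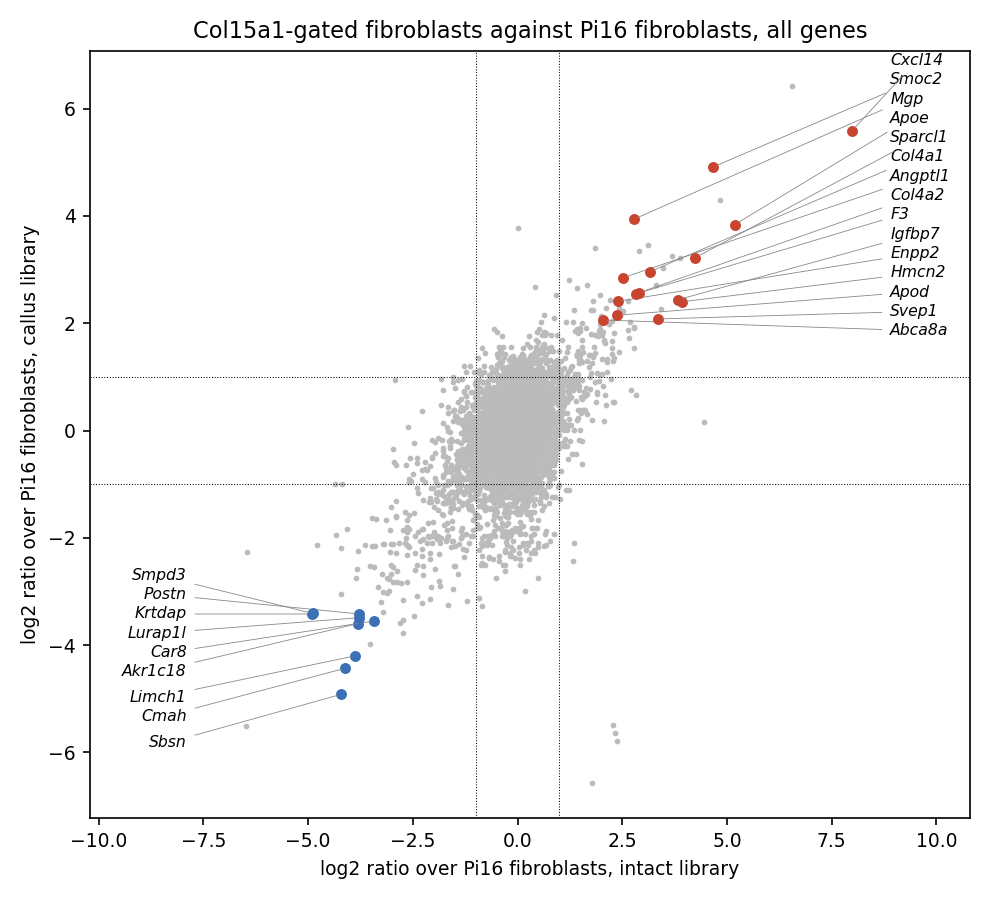
Log2 ratio of *Col15a1*-gated over *Pi16* fibroblasts (10 CPM added) in the intact library (x axis) and the callus library (y axis), 1 point per gene. The 15 named higher genes and the reported lower genes are labelled, with *Cxcl14* (7.99 and 5.59) and *Smoc2* (4.66 and 4.91) at the upper right.

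Ribosomal protein genes took 96659 and 112220 CPM of *Col15a1*-gated fibroblasts against 162078 and 147320 CPM of *Pi16* fibroblasts. None of 81 and 80 counted ribosomal protein genes passed 2-fold, with medians of -0.73 and -0.38. Of the immediate early and dissociation genes, such as *Fos*, *Jun* and *Dnajb1*, 10 of 30 were higher in the intact library (median 0.48) and 3 of 30 in the callus library (0.52), with none lower. They summed to 53563 and 38096 CPM against 27938 and 25773 CPM. Their part in the other ratios was not tested.

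*Thbs4*/*Cilp* fibroblasts also carried the markers, with *Smoc2* at 1943 and 797 CPM, *Cxcl14* at 760 and 111 CPM and *Ccl11* at 851 and 126 CPM. Their definition set no limit on *Col15a1*, which 16 of 24 intact and 44 of 61 callus cells carried. In both libraries the same way, 38 of 3418 genes (1.11%) were at least 2-fold higher in *Col15a1*-gated fibroblasts and 52 (1.52%) lower. In the intact library 131 of 3543 genes (3.7%) were higher and 149 (4.21%) lower, and in the callus library 343 of 5106 (6.72%) higher and 462 (9.05%) lower. *Hmcn2* was at 910 and 849 CPM and *Sparcl1* at 782 and 741 CPM in *Thbs4*/*Cilp* fibroblasts, no lower than in the *Col15a1*-gated ones.

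*Col4a1* stood against 1312 and 327 CPM in *Thbs4*/*Cilp* fibroblasts (log2 ratios 0.88 and 2.58) and *Col4a2* against 701 and 196 CPM (0.80 and 1.86), so both passed 2-fold in the callus library and neither in the intact library. Over the basement membrane list 5 of 18 were higher and 1 lower (median 0.57), and then 8 of 18 higher and 1 lower (0.93). Of the chemokine and cytokine list 8 of 13 genes were higher in each library with none lower (1.27 and 1.83), among them *Cxcl14*, *Ccl11*, *Cxcl1*, *Cxcl10* and *Cxcl12* in both libraries, and in the callus library also *Il6*, *Csf1* and the receptor gene *Il1r1*. The immediate early and dissociation list stood at 7 higher and 0 lower of 30 (0.60) and at 6 higher and 1 lower of 31 (0.20) against the same cells, and its part in the other ratios was not tested. The parenchymal list stood at 2 higher and 1 lower (*Penk*) of 12 (0.55) in the intact library and at 8 higher and 0 lower of 11 (1.49) in the callus library. *Cxcl10* lay almost wholly in a few cells, with 74.5% of its intact and 80% of its callus UMIs in 1 cell each.

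Genes of myofibroblasts and injury, such as *Postn*, *Tnc* and *Lox*, were lower than in *Thbs4*/*Cilp* fibroblasts for 8 of 12 genes in the intact library (median -1.38) and 15 of 17 in the callus library (-1.89, or -1.55 with genes at 0 set at their limit), with none higher. *Col1a1*, the main chain of collagen I, was at 2882 and 2788 CPM against 4593 and 10368 CPM. The tendon genes *Tnmd* and *Fmod* had 0 UMIs in *Col15a1*-gated fibroblasts. *Tnmd* was at least 15.2-fold and at least 5.8-fold lower, and *Fmod* at least 39.1-fold and at least 22.7-fold lower.

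Markers of other cell types were few in the fibroblasts. Of 8 tendon genes outside the gate none was detected, and of 7 endothelial genes 1 and 2 were, at 3.88 and 28.1 CPM in all. Of 7 mural genes 4 were detected in each library, at 77.6 and 65.5 CPM, most from *Cspg4*, with the pericyte gene *Rgs5* at 0. Osteoblast genes were at 42.7 and 9.36 CPM, all from *Alpl*, a level that the choice of cells without *Bglap* in part fixes. Myofibre genes were at 225 and 384 CPM, against 222 and 1417 CPM in *Pi16* fibroblasts. In callus *Pi16* fibroblasts 64% of the UMIs of *Acta1*, the highest myofibre gene there, were in 1 cell. Per 10000 UMIs of the cell, the callus myofibre medians were close, at 3.14 in *Col15a1*-gated and 4.07 in *Pi16* fibroblasts. The highest values were 10.6 and 446. Marrow stromal genes were at 314 and 692 CPM, most from *Cxcl12*, with *Lepr* and *Adipoq* at 0. Of the callus *Cxcl12* UMIs 52.1% were in 1 fibroblast, with a median of 2 and a highest value of 25 UMIs. Haematopoietic genes were at 33801 and 505 CPM, the first mostly from haemoglobin transcripts of 1 intact cell that held 5716 of the 5886 *Hbb-bs* UMIs of the intact fibroblasts.

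*Col15a1*-gated fibroblasts varied among themselves. Over genes counted after drawing 2000 UMIs per cell, the median variance over mean was 1.58 in 33 intact and 1.24 in 13 callus cells. Haemoglobin genes aside, the intact library was most uneven in *Eln* (17.2), which encodes elastin, the metallothionein *Mt1* (10.3), *Cxcl14* (10.2) and *Apoe* (9.37), with the nuclear transcripts *Gm42418* and *Malat1* between them. In the callus library *Gm42418* (47.4) and the early response gene *Fos* (13.5) came first, followed by *Mt1* (13.1), *Apoe* (9.67) and *Igfbp5* (8.94), with *Cxcl14* at 7.85. *Cxcl14* and *Apoe* had Spearman's rho of 0.51 over the 33 intact cells, of which 22 and 15 carried them at this depth, and 0.81 over the 13 callus cells, of which only 7 and 4 did. *Col15a1* and *Smoc2* had rho of 0.42 and 0.54, *Cxcl14* and *Hmcn2* -0.01 and -0.09. These coefficients are descriptions over cells that share a library and a dissociation.

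The cells on either side of the gate's thresholds were few. The 4 intact cells with exactly 2 *Col15a1* UMIs had *Smoc2* at 1021 CPM and *Cxcl14* at 1531 CPM, and the 2 intact cells with 1 UMI, just outside, had 307 and 0 CPM. In the callus library 3 of the 6 cells with 2 UMIs, and 3 of the 5 with 1 UMI, carried *Bglap*. The 6 intact cells with 1 or 2 *Pi16* UMIs, just inside, had *Smoc2* at 1858 CPM and *Cxcl14* at 2449 CPM, while 3 cells with 3 to 5 *Pi16* UMIs, just outside, had 4376 and 66.3 CPM. In all, 5 intact and 11 callus stromal cells had *Col15a1* at 2 or more and *Pi16* at 3 or more, among them those just outside the *Pi16* threshold, and belonged to neither group. Near the third threshold, 5 intact cells with 3 or 4 UMIs of *Thbs4* and *Cilp* had *Smoc2* at 3143 CPM and *Cxcl14* at 4715 CPM, and 5 with 5 to 9, just outside, 2779 and 2423 CPM. The 1 callus cell with 3 or 4 such UMIs had 6491 and 4592 CPM, and 2 callus cells with 5 to 9 had 732 and 0 CPM. At the *Pi16* threshold of the callus library, 3 cells just inside had *Smoc2* at 1167 CPM and *Cxcl14* at 607 CPM, and 6 just outside 875 and 0 CPM.

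Between the libraries, 176 of 3036 genes (5.8%) were at least 2-fold higher in callus than in intact *Col15a1*-gated fibroblasts and 141 (4.64%) at least 2-fold lower, and the 95% Poisson intervals lay apart for 72 and 40 of them. Without the intact cell rich in haemoglobin these were 151 and 156 of 2995. In *Pi16* fibroblasts, which were more numerous, 94 of 8626 genes (1.09%) were higher and 44 (0.51%) lower. The median ratio over all genes was 0.07 in *Col15a1*-gated fibroblasts. Mitochondrial transcripts took 13399 CPM of intact and 20227 CPM of callus *Col15a1*-gated fibroblasts, 14767 and 22474 CPM of *Pi16* fibroblasts and 11189 and 18636 CPM of blood-lineage cells, and their part in the other ratios was not tested.

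*Igfbp5*, which encodes a binding protein of insulin-like growth factors, had the highest ratio of the named genes. It was at 50.4 CPM (26.9 to 86.2) in the intact library, where 5 of 34 fibroblasts carried it with at most 6 UMIs, and at 1244 CPM (1042 to 1475) in the callus library, where 7 of 13 carried it, with a median of 1 and a highest value of 58 UMIs. The cells of the 2 libraries overlapped at low values, and 43.6% of the callus UMIs were in 1 cell. Callus cells with 58, 35, 20 and 11 *Igfbp5* UMIs had 2, 4, 1 and 9 *Smoc2* UMIs, against a median of 15 in callus fibroblasts. They had 2, 4, 9 and 2 *Col15a1* UMIs, and the first also had 2 *Pi16* UMIs, the most that the gate allowed. The part of these marker-poor cells in the ratio was not tested. The log2 ratio was 4.38, against 0.18 in *Pi16* fibroblasts, where the level was 5352 and 6044 CPM.

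*C3*, the central complement component, was at 241 CPM (184 to 308) and 1403 CPM (1188 to 1647), with 19 of 34 and 8 of 13 cells carrying it. Medians were 1 and 3 UMIs, and 58% of the callus UMIs were in 1 cell. That cell had 1 *Smoc2* UMI and 20 *Igfbp5* UMIs. The log2 ratio of *C3* was 2.50, and 1.11 in *Pi16* fibroblasts. *Serpine2*, a protease inhibitor, was spread over more cells, with 11 of 34 and 10 of 13 carrying it, at 50.4 and 281 CPM (2.27, and 0.63 in *Pi16* fibroblasts). *Sema3c*, a semaphorin, and *Cd248*, the stromal receptor endosialin, were higher by 2.16 and 1.62 on the log2 scale, and by 0.12 and 0.02 in *Pi16* fibroblasts. *Sema3c* and *Igfbp5* are on the list of *Pi16*-type genes, which stood at 3 higher and 1 lower of 15 (median 0.61, and 0.01 in *Pi16* fibroblasts). *Gas6*, a ligand of TAM receptors, was higher in both groups (1.83 and 1.98). *Heg1*, *Ctnnb1*, *Rplp1* and *Kcnq1ot1* completed the highest 10.

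Several transcripts were lower in callus fibroblasts. *Cxcl14* had a ratio of -1.01, at the 2-fold line, with 17.7% of its intact and 39.8% of its callus UMIs in 1 cell each. *AY036118* (-3.89, and -2.92 in *Pi16* fibroblasts) and *Bloc1s1* (-1.99 and -1.61) were lower in both groups, and *Lars2* had -2.14 against -0.87. The haemoglobin genes were lower in callus *Col15a1*-gated fibroblasts, and most of their UMIs were in the 1 intact cell named above. Without that cell the haemoglobin genes summed to 1061 CPM in intact fibroblasts, against 159 CPM in callus fibroblasts. The median *Hbb-bs* count per cell was 5 UMIs in the intact and 1 in the callus library in *Col15a1*-gated, *Pi16* and *Thbs4*/*Cilp* fibroblasts and in blood-lineage cells alike. *Cpxm1* had -1.90 against 0.37.

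Over all genes 5.8% were higher and 4.64% lower in callus, so a count of 0 or 1 in a short list is not read as a result. By list, the basement membrane genes had 0 higher and 1 lower of 18 (median -0.45), with *Col4a1* at -0.28 and *Col4a2* at -0.73. The background list of parenchymal genes (*Penk*, *Hsd11b1*, *Mme* and others) had 0 higher and 1 lower of 12 (-0.49), the interstitial collagens 0 and 0 of 10 (-0.15), the chemokine and cytokine list 3 and 3 of 14 (0.13), and WNT genes 4 and 0 of 8 (1.11). In the last list *Sfrp4* and *Sfrp2* rested on 1 callus cell each with 96% and 100% of the UMIs, and the cytokine gene *Il6* on 1 cell with 89.7%. Genes of myofibroblasts and injury had 1 higher and 0 lower of 8 (0.50).

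**Figure D5:**
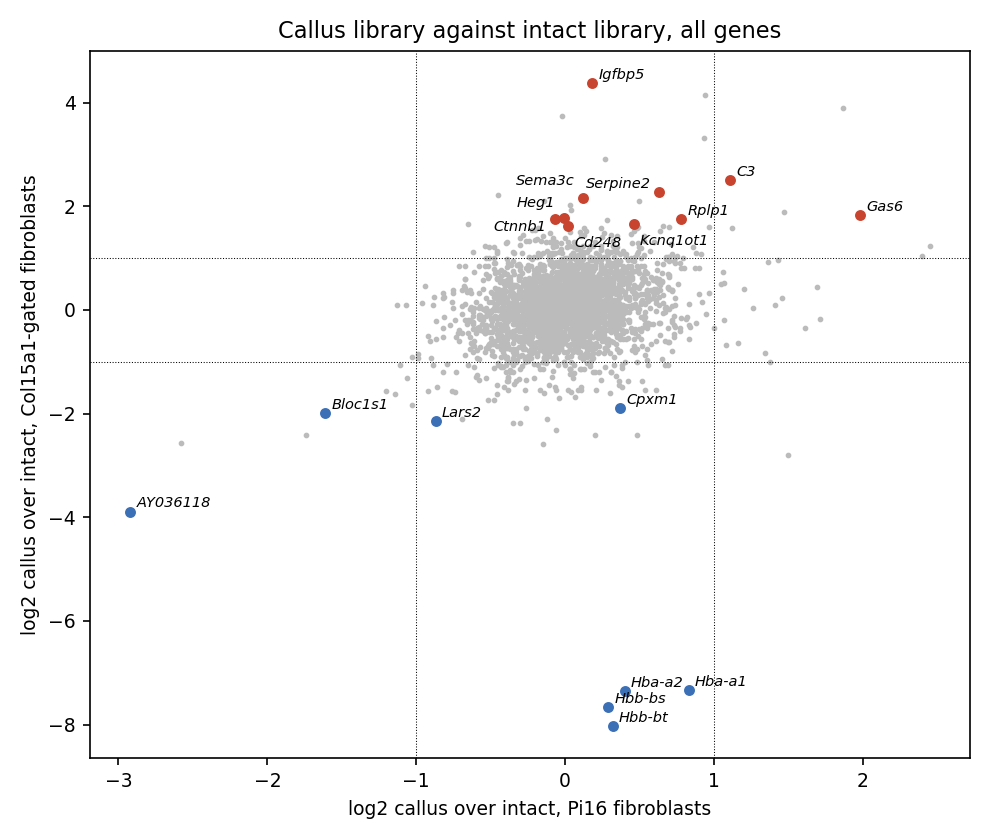
Log2 ratio of callus over intact (10 CPM added), 1 point per gene, in *Pi16* fibroblasts (x axis) and *Col15a1*-gated fibroblasts (y axis). *Igfbp5* lies at 0.18 and 4.38 and *C3* at 1.11 and 2.50, while *Gas6* lies above 0 and *AY036118* below 0 in both groups.

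With all 59 cells the values differed, and the cells with *Bglap* held 73.7% of the callus UMIs. In all, 264 of 4573 genes (5.77%) were higher and 754 (16.5%) lower in the callus library, with a median ratio of -0.31 over all genes, and with median-of-ratios size factors in place of total UMIs 471 were higher and 400 lower. The highest included the bone matrix gene *Spp1* (4.97) and the osteoblast gene *Ifitm5* (3.53), which had 0 UMIs in the fibroblasts of both libraries. The parenchymal background list had a median of -2.04 with 12 of 12 genes lower, against -0.49 in the fibroblasts. Set against callus *Pi16* fibroblasts, all 24 callus cells had medians of 0.63 for the parenchymal and -0.31 for the basement membrane list, beside -0.42 over all genes, and the complement list had -2.36. Set against callus *Thbs4*/*Cilp* fibroblasts, with -0.39 over all genes, they had medians of -0.25 for the parenchymal, -0.86 for the basement membrane, -0.05 for the chemokine and cytokine and -1.47 for the myofibroblast and injury list. Those of the fibroblasts alone were 1.49, 0.93, 1.83 and -1.89. Among 19 callus stromal cells with at least 200 *Bglap* UMIs, 13 carried *Col15a1* and 10 of them at 2 or more UMIs, at 87.6 CPM in all (65 to 115). After 2000 UMIs were drawn per cell, 5 of the 19 carried it and 1 had 2 or more.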

How the data were processed

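The authors sequenced 1 pooled 10x Genomics 3′ library per condition and made the deposited UMI counts with Cell Ranger 6.0.0 (per the file headers) on mm10. These raw counts per gene and cell were used as deposited, and no column of another sample was present. Cells were gated on raw UMIs as the report states. The members, the markers, the *Bglap* and *Pax7* split and the gene lists were chosen with earlier results of these data known. Of 32285 gene identifiers, 99.6% were in GENCODE M21.

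UMIs were summed per group and library and scaled to CPM, with exact 95% Poisson intervals. Shares carry exact Clopper-Pearson intervals. Log2 ratios had 10 CPM added and used genes with at least 20 UMIs over both groups, and a gene counted as higher or lower at 2-fold. Shares across depths were taken after drawing 2000 UMIs per cell, which left out 1 intact *Col15a1*-gated fibroblast and 15 intact and 10 callus *Pi16* fibroblasts. With 1 library per condition no test was made.

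Named genes were the 15 highest and 10 lowest over *Pi16* fibroblasts among those with at least 50 UMIs in each library and 2-fold apart the same way in both, also without the cell holding most UMIs, and, with at least 40 UMIs, the 10 highest and 10 lowest in callus over intact. The gate genes were left out, and some genes that this rule names are not reported here. Markers, members with most UMIs and members of the fixed lists that passed 2-fold were named too, and genes that illustrate a list were chosen after their values were seen. Paralogues that share reads, such as the haemoglobin genes, are uncertain, and the counting settings are not given in the sources used here.

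Scrublet called 1 doublet in each library at its own threshold (0.0534% and 0.0251% of cells), which is too few to be usable, so doublets were left in and, as an alternative, the 28 and 127 cells with the highest scores were left out. Other alternatives changed the thresholds of the gate, the cell filter, the scaling, the added CPM and the minimum of UMIs. Python 3.11.15 with numpy 2.4.6, scipy 1.17.1, pandas 2.3.3, scanpy 1.11.5 and matplotlib 3.10.9 was used, and the scripts were tested on simulated data.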

Additional observations from a re-analysis of the deposited data

How the results depend on the processing

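The results for all 59 gated cells were recomputed under other settings, some of which changed the cells. Of 496 such values, 431 stayed in the range of the reported value, 63 moved beyond it, and 2 list medians turned from at least 2-fold lower to above 0. That range was a set fold for counts, the exact interval for shares, and an interval from the ranked ratios of a list's genes for its median. It could be wide. Without cells with *Bglap* or *Pax7*, the callus basement membrane median over *Pi16* fibroblasts went from -0.31 to 0.77 and stayed within its range (-1.44 to 0.87). Adding 1 CPM, *Col15a1* thresholds of 1 or 3, no *Pi16* UMI, the stricter cell filter, and leaving out cells with at least 20 myofibre UMIs or the highest Scrublet scores moved none. No paired analysis was possible because each condition had 1 pooled library. The few callus fibroblasts, 1 library per condition and deep callus cells with *Bglap* limit what these counts can show.

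Without cells that carried *Bglap* or *Pax7*, a setting chosen after seeing the data, the callus count was 13 cells in place of 24, and its share 5.22% in place of 9.64%. Genes higher and lower than in *Pi16* fibroblasts in both libraries went to 120 (from 76) and 227 (from 360), and those lower in callus to 141 (from 754). In callus over *Pi16* fibroblasts list medians became 2.50 for parenchymal genes (from 0.63), -1.90 for *Pi16*-type genes (from -3.44), 0.36 for chemokines and cytokines (from -0.97), 0.62 for the insulin-like growth factor list (from -0.65), 0.26 for lipid genes (from -0.58) and 0.52 for immediate early genes (from -0.59), the last 4 changing sign. In callus over intact cells they became -0.49 (from -2.04), 0.61 (from -0.98), 0.13 (from -1.48), 0.53 (from -1.02), 0.13 (from -0.79) and -0.30 (from -1.22) in that order, the 4 above 0 having changed sign, and -0.45 for the basement membrane list (from -2.07). Shares of callus cells with a UMI at 2000 UMIs became 84.6% for *Col15a1* (from 62.5%), 76.9% for *Smoc2* (from 54.2%), 53.8% for *Cxcl14* (from 29.2%) and 92.3% for *Ccl11* (from 50%). Without the cell rich in haemoglobin as well, 151 genes were higher and 156 lower in callus.

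With the gate applied after drawing 2000 UMIs per cell, the callus count was 12 and its share 5.11%, with 108 genes higher (from 264) and 209 lower in callus. Callus over *Pi16* medians were then 2.12 for parenchymal, -2.18 for *Pi16*-type, 1.04 for basement membrane (from -0.31), -0.20 for chemokine, 0.15 for lipid and 0.34 for immediate early genes, and callus over intact medians -0.89, 0.38, -0.71 and -0.19 for the parenchymal, *Pi16*-type, basement membrane and immediate early lists. Those above 0 changed sign, except the parenchymal one. With the mean of the CPM of each cell, 366 genes were lower in callus, and the callus over *Pi16* medians were 1.64 (parenchymal), -2.76 (*Pi16*-type), -0.12 (chemokine) and -0.03 (immediate early), and the callus over intact medians -1.34 (parenchymal), -0.26 (*Pi16*-type), -1.22 (basement membrane) and -0.70 (immediate early). With median-of-ratios size factors 471 genes were higher and 400 lower in callus, the parenchymal callus over intact median was -1.66, the chemokine median over *Pi16* fibroblasts -0.58, and the immediate early medians -0.12 over *Pi16* fibroblasts and -0.79 over intact cells. With a minimum of 50 UMIs 37 genes were higher than in *Pi16* fibroblasts in both libraries, and 133 higher and 374 lower in callus; without a minimum these were 172, 543 and 1574. With all UMIs, the shares carrying a marker were 100%, 100%, 82.9% and 91.4% for *Col15a1*, *Smoc2*, *Cxcl14* and *Hmcn2* in intact cells (from 79.4%, 97.1%, 64.7% and 67.6%) and 100% and 87.5% for *Col15a1* and *Smoc2* in callus cells. Fewer cells enter under the narrower gates, fewer genes under the higher minimum and more without one, by construction; the cause of the other shifts was not tested.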
